A study of Mus musculus with 24 samples.

Results

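Protein-protected sites (PPSs) that lay on the strand opposite to an annotated gene, with no annotated gene on their own strand, were followed in MEL cells, a mouse erythroleukemia line that enters erythroid differentiation when DMSO is added to the medium. They were taken from 3 merged lists of PPSs, for day 0, day 2 and day 4, after sites of 20 to 40 nt, the size of a ribosome footprint, had been left out. A PPS was called antisense when it overlapped no GENCODE gene body on its own strand and overlapped at least 1 nt of a gene body on the other strand in mm10. By this rule 6360 of 356432 PPSs were antisense, 336786 overlapped a gene on their own strand (sense) and 13286 touched no gene on either strand (intergenic). Day 0 had 1849 of them, day 2 had 2205 and day 4 had 2306.

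The sites came from 24 PIP-seq libraries, in 12 groups of 2 replicates. PIP-seq, or protein interaction profile sequencing, finds stretches of RNA that proteins shield from nucleases. Undifferentiated cells (day 0) and cells after 2 and 4 days of DMSO were crosslinked with formaldehyde. Each lysate was digested with RNaseONE, which cuts single-stranded RNA (ssRNase), or RNase V1, which cuts paired RNA (dsRNase), either with its proteins in place or after proteinase K had removed them, and the libraries kept the strand of the RNA. Each PPS names the digestions and replicates in which it was called (a gain of coverage with proteins over coverage without them), which gave 12 call sets, from 3 days, 2 nucleases and 2 replicates. A PPS can belong to several call sets with 1 pair of merged ends, so the spread between replicates is understated. The call sets held between 14832 and 73952 PPSs each. All groups are 1 cell line, so a changed number of cells of a kind and a changed amount of RNA per cell cannot be told apart. Own-strand PPSs were present at day 4 in 14 of 14 erythroid marker genes, against 11 at day 0, and in 1 of 5 markers of other blood cells at any day (Ptprc, 3 PPSs at day 0). The ssRNase call set of replicate 2 stood apart in strand at day 0, with 66.9% of its PPSs on the plus strand, and so did that of day 4, with 43.1%. The other 10 call sets lay between 50.3% and 52.0%.

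RNA from the strand opposite to a gene can come from a promoter of its own, from a promoter that fires in both directions, or from a neighbouring gene whose transcription runs past its annotated end. Many such transcripts stay in the nucleus and turn over fast, and some pair with, or regulate, the RNA of the other strand. PIP-seq reads protection of any RNA in the lysate, so it also sees proteins on transcripts that no annotation holds.

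The antisense PPSs shown here were picked by score, the authors' enrichment value, which grows with the number of calls merged into a PPS. They are the 5 highest-scoring ones of at most 300 nt that lay wholly in introns or coding exons of a host gene (the gene on the other strand), held calls of both replicates and overlapped antisense PPSs of all 3 days, 1 for each host. All 5 fell in introns, and capitals mark the bases inside antisense PPSs of all 3 days. The mm10 positions, on the strand of the PPS, are chr9:24745119-24745233 (plus) in Tbx20, chrX:169998170-169998451 (minus) in Mid1, chr19:30087568-30087811 (minus) in Uhrf2, chr3:95740377-95740660 (plus) in Tars2 and chrX:166357420-166357710 (minus) in Gpm6b. Their scores were 84.88, 75.73, 75.38, 75.05 and 74.15. The best-scoring intronic sites of Gata1, at chrX:7968864-7968957 (plus, score 36.86, day 2), and of Sox5, at chr6:143841561-143841842 (plus, score 44.21, day 0), were added after their values were seen, and no base of either lay in antisense PPSs of all 3 days.
Tbx20: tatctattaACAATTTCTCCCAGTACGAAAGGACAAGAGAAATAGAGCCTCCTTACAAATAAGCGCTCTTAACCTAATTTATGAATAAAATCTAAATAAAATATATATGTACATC
Mid1: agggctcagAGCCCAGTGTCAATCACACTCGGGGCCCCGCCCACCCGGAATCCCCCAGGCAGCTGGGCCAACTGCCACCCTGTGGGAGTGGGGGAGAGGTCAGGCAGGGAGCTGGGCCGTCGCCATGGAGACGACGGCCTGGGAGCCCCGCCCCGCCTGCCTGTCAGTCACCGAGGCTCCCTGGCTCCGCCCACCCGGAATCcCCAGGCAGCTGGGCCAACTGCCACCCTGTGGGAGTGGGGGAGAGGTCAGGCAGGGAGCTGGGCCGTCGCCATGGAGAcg
Uhrf2: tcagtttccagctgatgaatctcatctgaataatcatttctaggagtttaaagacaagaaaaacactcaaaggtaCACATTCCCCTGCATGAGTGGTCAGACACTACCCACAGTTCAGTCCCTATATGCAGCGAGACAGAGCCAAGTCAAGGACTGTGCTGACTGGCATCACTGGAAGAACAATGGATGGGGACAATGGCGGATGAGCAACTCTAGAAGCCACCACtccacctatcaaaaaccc
Tars2: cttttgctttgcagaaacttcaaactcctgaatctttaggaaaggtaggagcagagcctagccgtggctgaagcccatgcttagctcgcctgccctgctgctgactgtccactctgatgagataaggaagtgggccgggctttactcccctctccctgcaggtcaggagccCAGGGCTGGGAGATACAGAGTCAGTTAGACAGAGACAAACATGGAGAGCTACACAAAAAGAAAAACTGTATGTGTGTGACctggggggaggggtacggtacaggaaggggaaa
Gpm6b: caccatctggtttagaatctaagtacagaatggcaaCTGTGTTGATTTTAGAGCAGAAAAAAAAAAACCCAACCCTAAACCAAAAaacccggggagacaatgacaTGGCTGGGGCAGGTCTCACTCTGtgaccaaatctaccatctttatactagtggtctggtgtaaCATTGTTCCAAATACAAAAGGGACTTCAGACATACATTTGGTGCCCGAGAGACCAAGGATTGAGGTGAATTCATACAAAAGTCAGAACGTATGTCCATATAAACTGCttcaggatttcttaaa
Gata1: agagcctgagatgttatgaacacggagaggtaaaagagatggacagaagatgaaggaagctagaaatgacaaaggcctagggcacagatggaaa
Sox5: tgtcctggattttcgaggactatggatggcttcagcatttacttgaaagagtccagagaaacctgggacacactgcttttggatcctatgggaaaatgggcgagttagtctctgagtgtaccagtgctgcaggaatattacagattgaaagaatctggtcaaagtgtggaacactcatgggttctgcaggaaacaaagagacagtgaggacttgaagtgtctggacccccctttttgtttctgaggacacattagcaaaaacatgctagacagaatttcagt

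The Tbx20 site was 28.7% G plus C and matched mitochondrial DNA at 94.7% identity, and the Mid1 site was 71.6% G plus C and occurred at 2 places in the genome. The other 5 sequences had 1 exact place each. Only the Uhrf2 site had a PPS on the other strand at the same place.

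Antisense PPSs were a small share of each list, larger after ssRNase than after dsRNase at each day. They made up 1.61% of the day 0 list (1.54 to 1.68, Wilson 95%), 1.85% of the day 2 list (1.77 to 1.92) and 1.89% of the day 4 list (1.81 to 1.97). These intervals cover counting error only. In the ssRNase call sets the share was 1.93% and 2.03% at day 0, 2.16% and 2.07% at day 2, and 2.24% and 2.22% at day 4, for replicates 1 and 2. The dsRNase call sets gave 1.17% and 1.33%, then 1.42% and 1.44%, then 1.86% and 1.84%. No dsRNase value reached an ssRNase value of the same day. The mean difference, dsRNase minus ssRNase, was -0.60 percentage points (exact two-sided permutation test within days, p = 0.00926, the smallest that its arrangements can give, adjusted p = 0.037 over 4 nuclease differences). With replicates kept as pairs (a replicate block), the exact p was 0.0312, the smallest possible, and the adjusted p was 0.0625. Without replicate 2 of day 0 or of day 4, whose ssRNase call sets stood apart in strand, the difference was -0.60 both times (exact permutation, adjusted p = 0.111 both times).

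Over the 2 replicates of a day, with the nucleases pooled, the antisense share was 1.67% ± 0.034 (SD, n = 2) at day 0, 1.91% ± 0.052 for day 2 and 1.97% ± 0.0050 for day 4. Every replicate of day 2 and day 4 was above both of day 0. The difference from day 0 was 0.24 percentage points at day 2 (0.18 to 0.30 over the 4 pairs of replicates) and 0.30 at day 4 (0.27 to 0.32). In the ssRNase call sets the day 4 difference was 0.25 points (0.19 to 0.31) and in the dsRNase call sets 0.60 points (0.52 to 0.69). No test was run, since an exact test over 3 days of 2 replicates cannot go below 0.0667. On the plus strand alone the day 4 difference in the merged lists was 0.46 points and on the minus strand alone 0.051 points, against 0.28 for both. With own-strand genes extended by 5 kb on both sides the day 2 difference in the merged lists was 0.048 points, against 0.24, and the day 4 difference 0.13 points.

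**Figure D1:**
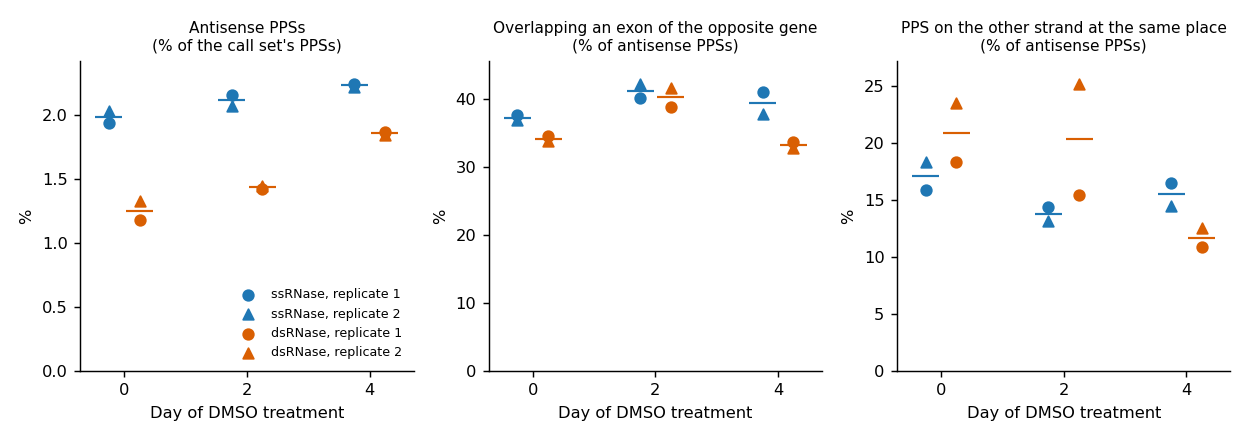
Each point is a call set (1 nuclease, 1 replicate) at day 0, 2 or 4 of DMSO and each line the mean of 2 replicates. The panels show, in percent, the antisense share of PPSs, the share of antisense PPSs that overlap an exon of the opposite gene, and the share with a PPS on the other strand at the same place. In the right panel the PPS on the other strand could come from any call set of the day. The ssRNase points (1.93% to 2.24%) lie above the dsRNase points (1.17% to 1.86%) of the same day in the left panel, and neither nuclease is the higher at every day in the right panel.

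Antisense PPSs held calls of both replicates somewhat more often than PPSs as a whole, as intergenic PPSs also did. A larger share of antisense PPSs was seen at all 3 days. Both replicates called 664 of 1849 at day 0 (35.9%, Wilson 33.8 to 38.1), 791 of 2205 at day 2 (35.9%) and 954 of 2306 at day 4 (41.4%), where all PPSs gave 30.8%, 30.8% and 35.8%. The 10 largest runs of neighbouring antisense PPSs, described below, raise this share. Over the 3 days it was 47.1% to 73.7% in them, except 34.8% in the Sox5 run, against 37.9% of all antisense PPSs. The share outside these runs was not computed. In order of day, 64.5%, 63.5% and 57.3% overlapped a PPS of another day on their strand, against 62.6%, 63.7% and 62.3% of all PPSs, so that the day 4 share (Wilson 55.3 to 59.3) lay below that of all PPSs. PPSs of both other days overlapped 38.0%, 33.3% and 30.1% of antisense PPSs and 28.7%, 28.0% and 27.0% of all PPSs. For intergenic PPSs these shares were 32.1%, 27.2% and 26.9%. None of these shares was tested. Their median length was 67, 60 and 65 nt at the 3 days, and the longest was 740 nt. Just outside the length rule, 253, 835 and 480 antisense PPSs of 20 to 40 nt were left out, while 31, 49 and 44 of exactly 41 nt and 18, 40 and 36 of under 20 nt were kept.

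Most antisense PPSs sat in a small part of the runs that they formed. When antisense PPSs on 1 strand were joined over gaps of up to 10 kb, with the 3 days together, they formed 929 runs, of which 415 held a single PPS. The 10 largest runs held 2070 PPSs (32.5%) and the 55 runs of 20 or more held 3718 (58.5%). Of those 55 runs, 47 had PPSs at all 3 days, against 210 of all 929 runs. Run size sums the 3 days, so the size rule itself favours runs seen at every day. The largest, called the Mid1 run here, lay at chrX:169965091-170019286, opposite the 3′ part of Mid1 and Gm21887. It held 127 PPSs on day 0, 146 on day 2 and 126 on day 4. Mid1, a ubiquitin ligase gene that crosses the edge of the region shared by the X and Y chromosomes, itself faced 90, 106 and 87. The next run, with 123, 142 and 118, lay opposite Gpm6b, which encodes a membrane proteolipid known from neurons, at chrX:166348504-166389040. The Mid1 and Gpm6b runs had nearly the same number at each day, and PPSs in Gpm6b had the highest antisense score of day 0 (135.37) and of day 4 (158.48), while the highest of day 2 (128.09) was in Mid1.

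A pair of runs faced the genes next to Mcl1, which encodes an inhibitor of apoptosis, on chromosome 3. The nearer, opposite Adamtsl4 (an extracellular matrix gene), began 13078 nt after the Mcl1 end and held 37, 49 and 51 PPSs at day 0, 2 and 4. The farther spanned Ecm1, Tars2 (the mitochondrial threonyl-tRNA synthetase) and Rprd2 (a protein that binds RNA polymerase II), over 67.4 kb. It held 25 and 29 PPSs in the replicates of day 0, 53 and 56 at day 2, and 117 and 107 at day 4, so that the days did not overlap. Own-strand PPSs of Mcl1 numbered 25, 18 and 18. A run of 74, 60 and 86 PPSs lay opposite Bzw2, a gene linked to translation, and a run of 26, 36 and 42 opposite Uhrf2, a ubiquitin ligase that binds modified cytosine. Opposite Mid1-ps1, a Mid1 pseudogene on the Y chromosome, there were 36, 35 and 34, of which 96 of 105 had several places. Sfi1, a centrosome gene with 123, 147 and 122 own-strand PPSs, faced 18, 25 and 13.

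**Figure D2:**
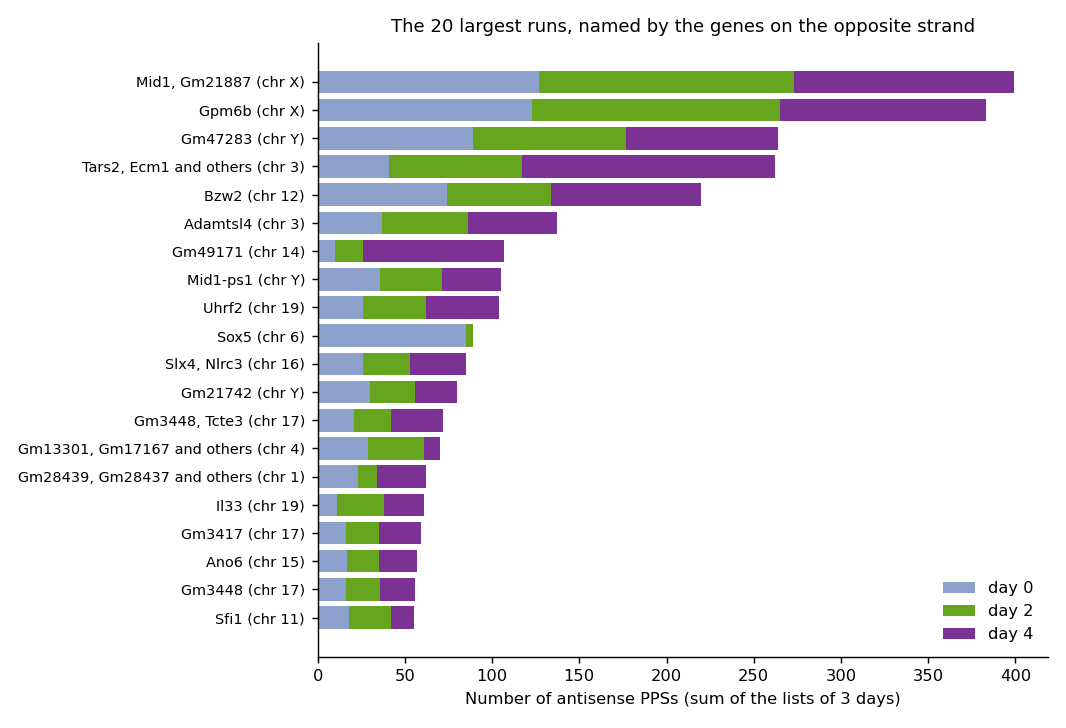
Bars give the number of antisense PPSs in each of the 20 largest runs, stacked by day and labelled by the genes on the opposite strand and the chromosome. The runs of Mid1 with Gm21887 (127, 146 and 126) and of Gpm6b (123, 142 and 118) are nearly even over days. That of Sox5 holds 85, 4 and 0, and that of Gm49171 holds 10, 16 and 81.

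Relative to the space open to them, antisense PPSs were concentrated near gene ends, with the highest ratio just past a gene on their own strand. That space, bases with a gene on the other strand and none on their own, was 1169 Mb counted over both strands, and they had 5.44 PPSs per Mb there, summed over the 3 lists. Own-strand gene bodies had 264 per Mb and space with no gene 4.42 per Mb. Within 5 kb downstream of a same-strand gene end lay 26.2% of antisense PPSs at day 0 (24.2 to 28.2), 33.2% at day 2 and 30.7% at day 4, where 4.69% of the open space lies (6.45 times that share over all days). Within 5 kb upstream of a same-strand gene start lay 14.8%, 15.2% and 13.2%, for 5.07% of the space. For the gene on the other strand, 15.8%, 18.5% and 15.9% had their midpoint within 1 kb of its annotated end and 9.25%, 9.89% and 9.06% within 1 kb of its start, which hold 3.83% and 3.82% of the space. The median distance to the nearest opposite start was 11.5 kb at day 0 and to the nearest opposite end 6.29 kb. These are descriptions without a test, since neighbouring PPSs may share a transcript. With own-strand genes extended by 5 kb on both sides, 3915 antisense PPSs were counted in place of 6360.

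Most antisense PPSs near a same-strand gene end followed a gene with PPSs of its own. Of antisense PPSs within 5 kb of such a gene end, 439 of 484 at day 0 (90.7%), 671 of 733 at day 2 (91.5%) and 637 of 707 at day 4 (90.1%) followed a gene that held an own-strand PPS that day, while 17.6% to 18.7% of all annotated genes did. Of antisense PPSs farther away the share was 57.1%, 61.3% and 63.98%. These are shares of PPSs, in which a gene counts once for each PPS that follows it. The share of annotated genes counts each gene once, so the units differ. Of the 55 runs of 20 or more, 23 began within 5 kb of a same-strand gene end and 15 stopped within 5 kb of a same-strand gene start. The Gpm6b run began 992 nt after the end of Ofd1, a gene of the centriole, which held 63, 71 and 71 own-strand PPSs. The run opposite Map3k12 began 113 nt after Pcbp2, which encodes a poly(C)-binding protein and held 51, 47 and 68. The run opposite Dnajb13 began 26 nt after Ucp2, a mitochondrial carrier gene. It held 0 and 1 PPSs in the replicates of day 0, 7 and 12 at day 2, and 12 and 11 at day 4, beside 12, 22 and 28 own-strand PPSs of Ucp2.

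**Figure D3:**
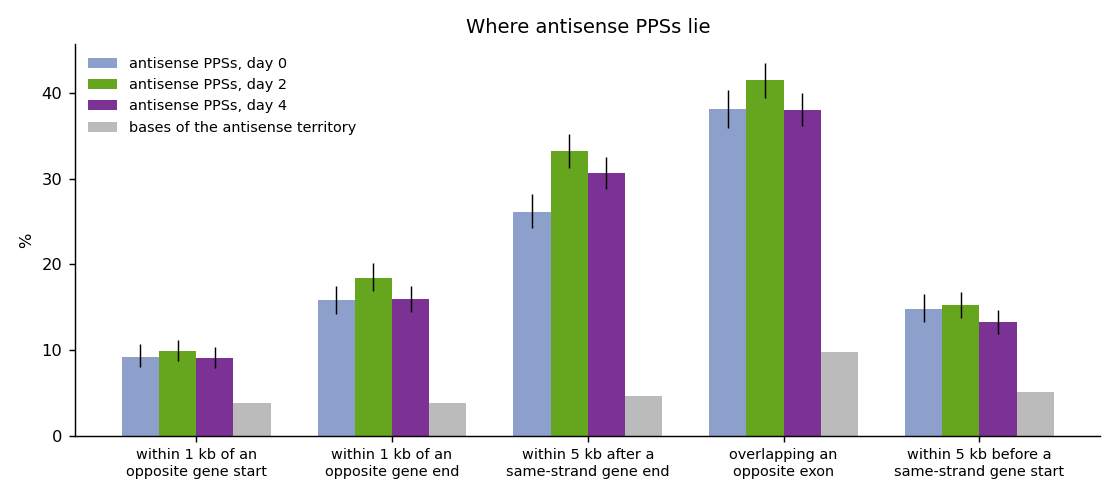
Coloured bars give the percent of antisense PPSs of each day in 5 kinds of place, with Wilson 95% intervals, and the grey bar the percent of the bases open to antisense PPSs that lie there. Each coloured bar is above its grey bar, with the highest ratio after a same-strand gene end (26.2% to 33.2% against 4.69%).

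Exons of the opposite gene were overlapped by 38.1%, 41.5% and 38.1% of antisense PPSs in order of day, and exons make up 9.76% of the open space. The first are shares of PPSs that touch an exon by 1 nt or more and the second is a share of bases. These are unlike measures, and a ratio of them overstates the difference. Coding sequence was touched by 16.2%, 18.7% and 16.5%. In every replicate the share was lower after dsRNase than after ssRNase, with a mean difference of -3.39 points (exact two-sided permutation test, p = 0.0185, adjusted p = 0.037; paired block p = 0.0312, adjusted 0.0625). At day 4, for instance, the ssRNase call sets had 40.96% and 37.8% and the dsRNase call sets 33.6% and 32.8%. That difference shrank to -1.70 points (exact permutation, adjusted p = 0.481) when the 10 largest runs were left out. The share near opposite starts was 1.26 points higher after dsRNase (exact permutation, adjusted p = 0.235), and with protein-coding and long noncoding genes alone it was -0.85 points (adjusted p = 0.037 by the same exact test).

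A PPS on the other strand at the same place was far more frequent among antisense PPSs than in the lists as a whole. It was found for 298 of 1849 at day 0 (16.1%, Wilson 14.5 to 17.9), 296 of 2205 at day 2 (13.4%) and 286 of 2306 at day 4 (12.4%), where all PPSs gave 0.682%, 0.722% and 0.663%. Of the much longer sense lists, 0.325%, 0.350% and 0.335% had one. Intergenic PPSs had 3.41%, 3.62% and 2.96%. The rule itself favours this order, since a gene body faces every antisense PPS and none faces an intergenic PPS. Own-strand gene bodies had 264 PPSs per Mb, against 5.44 in the space open to antisense PPSs and 4.42 in space with no gene. At day 0 the shares rest on similar numbers, 298 antisense and 355 sense PPSs. In the values by replicate and nuclease that follow, the PPS on the other strand could come from any call set of the day. For antisense PPSs, the share over replicates was 17.3% ± 1.9 (SD, n = 2) at day 0, 14.1% ± 0.52 at day 2 and 13.2% ± 0.032 at day 4. With both strands limited to replicate 1 or replicate 2, it was 13.3% and 16.6% at day 0, and 12.6% and 11.2% at day 2. With the nucleases pooled, both replicates of day 2 and day 4 were below both of day 0. Within a nuclease the replicates overlapped in some of these comparisons. The day 4 minus day 0 pairs ran from -3.85 to 0.61 points after ssRNase and from -12.7 to -5.80 after dsRNase, and the day 2 pairs from -5.16 to -1.51 after ssRNase and from -8.08 to 6.89 after dsRNase. With the lists limited to PPSs of a single call on both strands, the share was 3.797%, 3.303% and 4.34% in order of day. This limit also took out merged PPSs on the other strand. The nucleases differed by 2.19 points (dsRNase higher; exact two-sided permutation test, p = 0.407, adjusted p = 0.407), less than the spread between replicates at day 2, 15.5% and 25.2% after dsRNase.

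Where both strands were protected, the sense PPS tended to score higher. The antisense PPS had the higher score in 41.4%, 37.9% and 42.5% of the overlapping pairs at day 0, 2 and 4, and the median ratio of scores, antisense over sense, was 0.885, 0.738 and 0.914. The median overlap was 53, 46 and 42 nt. No pair had identical ends. In 217 of the 298 cases at day 0 (72.8%) both PPSs were called in the same call set.

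Sequence copies moved with this measure. Of antisense PPSs of 20 nt or more, 541 at day 0, 609 at day 2 and 553 at day 4 (29.3%, 27.6% and 24.0% of all) had another exact place on the chromosomes, and 30.5%, 27.1% and 24.2% of these had a PPS on the other strand. Those with a single place had 9.84% (8.34 to 11.6), 8.23% and 8.503%. In the Mid1 run 335 of 399 PPSs had several places, and in the run opposite Gm47283 on the Y chromosome 201 of 264 did and 209 had a PPS on the other strand. Another 62 PPSs, opposite a string of predicted genes at chr1:24611541-24616184, lay on a 4644 nt stretch that matched mitochondrial DNA at 99.957% identity, and 60 of them were protected on both strands. The part that reads with several possible places have in these shares was not tested. Among runs with no second exact place, 63 of 104 PPSs opposite Uhrf2 and 69 of 262 in the Tars2 run had a PPS on the other strand, and in the Gpm6b run 15 of 383 did. Copies with mismatches, or of only part of a PPS, were not counted as places.

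**Figure D4:**
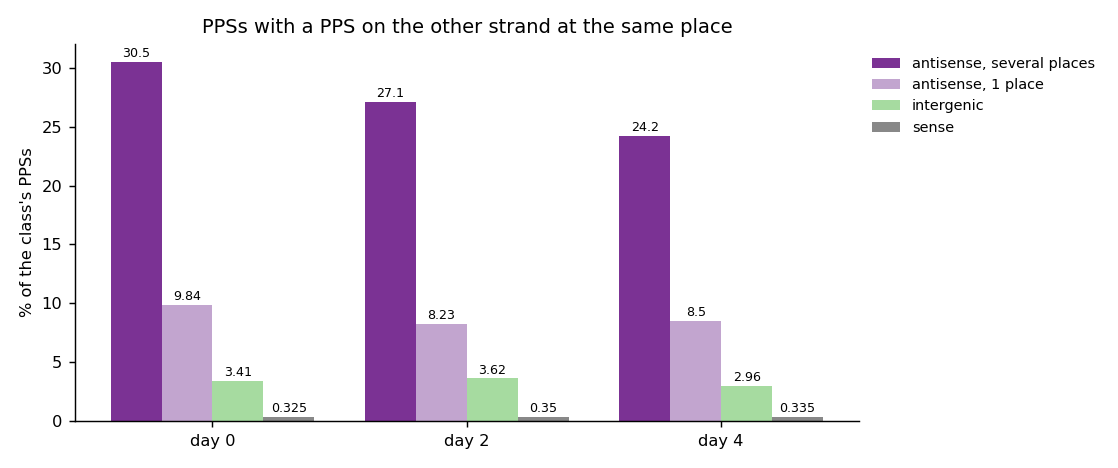
Bars give, for each day, the percent of PPSs with a PPS on the other strand at the same place, for antisense PPSs with several exact places or 1 place in the genome, intergenic PPSs and sense PPSs. Antisense PPSs of several places (24.2% to 30.5%) and of 1 place (8.23% to 9.84%) are above intergenic (2.96% to 3.62%) and sense PPSs (at most 0.350%). By the rule, a gene body faces every antisense PPS and no intergenic PPS.

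The hosts, 959 genes in all, held own-strand PPSs more often than annotated genes at large, and some held none. At day 0 there were 480 hosts, at day 2 605 and at day 4 568, and 82.8% of antisense PPSs faced a protein-coding gene. An own-strand PPS was found at any day for 561 of the 959 (58.5%) and not for 398, while 11573 of the 55450 annotated genes had one. The 561 are 4.85% of those 11573 genes, and 67 of them had more antisense than own-strand PPSs over the 3 days. A single antisense PPS was all that 401 hosts had, and 120 had 10 or more.

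Between day 0 and day 4, both replicates of day 4 had more antisense PPSs than either of day 0 at 143 of 779 hosts (18.4%) and fewer at 79 (10.1%). For own-strand PPSs the same held for 25% (more) and 20.8% (fewer) of 11022 genes, so neither share of hosts exceeds that background. Among hosts with symbols other than Gm or Rik names, the largest differences upward were at Tars2, Rprd2, Ecm1, Apol7c and Uhrf2. Tars2, Rprd2 and Ecm1 face the same run on chromosome 3. Tars2 had 16 and 15 antisense PPSs in the replicates of day 0, 32 and 35 at day 2, and 65 and 56 at day 4. Rprd2 had none in either replicate of day 0, 3 and 3 at day 2, and 29 and 28 at day 4, while its own-strand PPSs numbered 32, 51 and 57. Apol7c, of the apolipoprotein L family, had 13 and 11 at day 4 and none at day 0 or day 2, and no own-strand PPS at any day. Uhrf2 had 17 and 19 at day 0 and 41 and 26 at day 4, beside 70, 73 and 69 own-strand PPSs.

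Among the same hosts, the largest differences downward were at Sox5, Zmiz1os1, Bsn and the overlapping pair Opn3 and Chml, which share their antisense PPSs. Sox5, a transcription factor gene with no own-strand PPS at any day, had 53 and 63 at day 0, 1 and 3 at day 2, and 0 and 0 at day 4. This run of 62.5 kb was called in all 4 call sets of day 0, with 45 and 56 PPSs after ssRNase and 11 and 17 after dsRNase. Bsn, which encodes a presynaptic scaffold, had 11 and 17 at day 0, 3 and 7 at day 2, and 0 and 0 at day 4. Zmiz1os1, itself a noncoding RNA antisense to Zmiz1, had 18 and 16, then 5 and 7, then 0 and 0. For Opn3, an opsin gene, and Chml, a Rab escort protein gene, there were 12 and 9 at day 0 and 1 and 1 at day 4, while own-strand PPSs of each numbered 1, 4 and 6. The replicates of day 0 and day 4 did not overlap at any of these hosts, which the rule required.

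**Figure D5:**
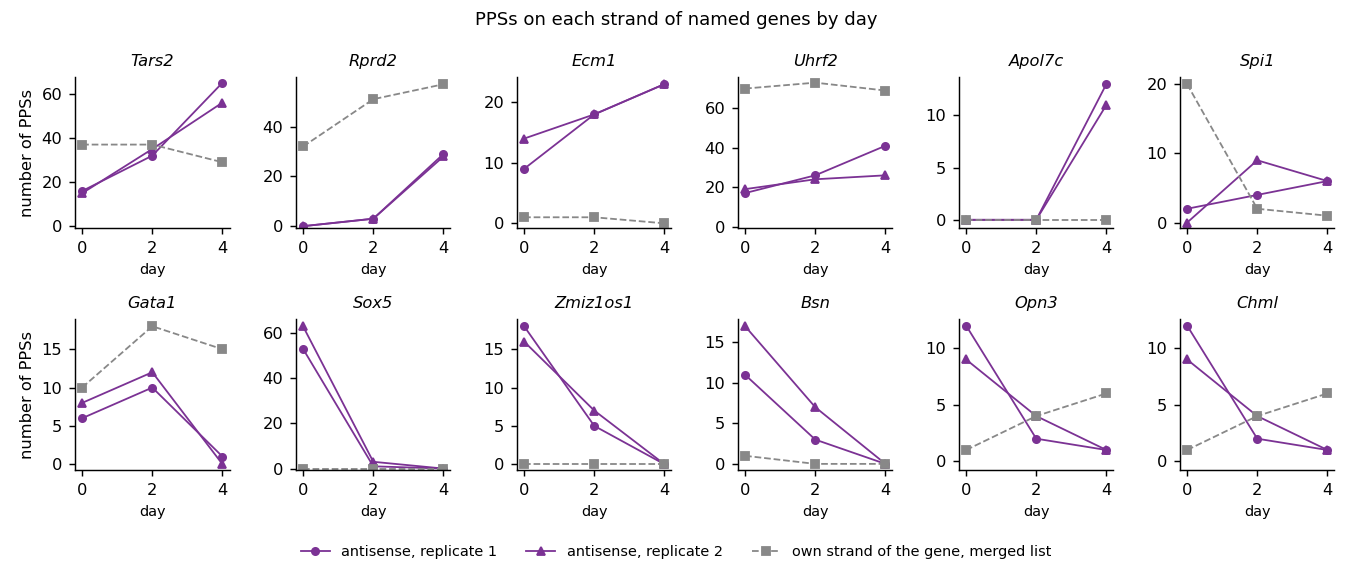
Purple lines give the number of antisense PPSs at each host by day for replicate 1 (circles) and replicate 2 (triangles), and grey dashes the own-strand PPSs of the host in the merged list of the day. Sox5 goes from 53 and 63 to 0 and 0, Tars2 from 16 and 15 to 65 and 56, and Gata1 from 6 and 8 to 1 and 0.

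Few genes of the erythroid and RNA-handling lists hosted antisense PPSs, as was so for all genes with an own-strand PPS (4.85%). Of the genes with an own-strand PPS, 0 of 4 globins, 3 of 18 erythroid transcription factors (16.7%, Gata1, Spi1 and Zfpm1), 0 of 17 red cell membrane genes, 1 of 16 replication genes (Mcm7), 1 of 21 hnRNP and SR protein genes (Hnrnph1), 0 of 13 snoRNA hosts and 0 of 4 nuclear long noncoding RNAs were hosts. Among them, only Gata1 and Spi1 had antisense PPSs with calls of both replicates. Gata1, the master regulator of red cell genes, faced 6 and 8 antisense PPSs in the replicates of day 0, 10 and 12 at day 2, and 1 and 0 at day 4, in a run at chrX:7966522-7978079 over its 5′ part. Its own-strand PPSs numbered 10, 18 and 15. Spi1, which encodes PU.1, a factor of myeloid cells that holds back MEL differentiation, faced 2 and 0 at day 0, 4 and 9 at day 2, and 6 and 6 at day 4, while its own-strand PPSs numbered 20, 2 and 1. At Gata1 the replicates of day 4 lay below those of day 0, and at Spi1 above.

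Compared with sense PPSs of the same replicate, antisense PPSs held more repeat sequence. Repeat-masked bases were 13.4% ± 1.3 (SD, n = 6) of antisense and 5.66% ± 0.16 of sense PPSs, higher in 6 of 6 replicates (difference 7.79 points, exact two-sided sign-flip permutation test, p = 0.0312, the smallest 64 arrangements can give, adjusted p = 0.0417 over 4 measures). On the plus strand alone the repeat difference was 1.07 points and on the minus strand alone 13.7. The Mid1 and Gm47283 runs, both on the minus strand, were 58.7% and 50.3% repeat. The G plus C content was 47.6% ± 1.1 and 46.8% ± 0.86, higher in 6 of 6 (0.77 points, exact permutation, adjusted p = 0.0417). The median length was 69.9 ± 4.1 and 65.0 ± 3.0 nt, longer in 6 of 6 (4.92 nt, exact permutation, adjusted p = 0.0417). The median score of single-call PPSs was 6.61 in both (exact permutation, adjusted p = 1). The length difference turned when the 10 largest runs were left out, to -2.17 nt (exact permutation, adjusted p = 0.0417), and without PPSs of several places the repeat difference was 1.86 points and the G plus C difference 0.19 points (exact permutation, adjusted p = 0.0625 and 0.25).

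Some short words were counted in the 100 nt around each midpoint, on the strand of the PPS. The poly(A) signal AATAAA was in 4.91% of antisense windows and 4.06% of windows of all PPSs, and on the reverse strand in 3.84% and 4.57%. The run AAAAAA was in 5.53% and 3.398%, and on the reverse strand in 3.11% and 4.32%. The 5′ splice site word GTAAGT was in 2.22% and 3.36%, and on the reverse strand in 1.67% and 1.55%. Outside the 10 largest runs AATAAA was in 4.13%, AAAAAA in 4.13% and GTAAGT in 1.91% of antisense windows on their own strand. These are descriptions and no test was run.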

How the data were processed

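PPSs were analysed in 24 PIP-seq libraries, grouped by the sample titles. The authors trimmed reads with cutadapt 1.2.1, aligned them to mm10 with TopHat2 2.0.10 (submitters' processing notes), called PPSs by comparing coverage with and without proteins, and merged the calls of a day into 1 list. The deposited lists give each PPS a score, an enrichment value by the authors, which scales with the calls merged, and the names of its calls. Read depth is unknown from these lists, so intervals cover counting of PPSs only.

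PPSs of 20 to 40 nt were left out. Genes came from GENCODE M21 on the strand given, and sequence and soft-masked repeats from the RefSeq GRCm38 genome, inside whose chromosomes all PPS ends fell. Overlap meant 1 nt or more. A PPS counted in each call set it named, so call sets of a day share PPSs. By the study's methods, libraries of a day with the same replicate number came from 1 divided extract, so the nucleases were also compared with replicates as pairs. The labels link no replicate across days. Exact places in the genome and likeness to mitochondrial DNA (at least 90% identity over at least 90% of the length) were found with blastn 2.17.0. Exact permutation tests with Benjamini-Hochberg adjustment over 4 tests each used the 12 call sets or 6 replicates (scipy 1.17.1, numpy 2.4.6, pandas 2.3.3, Python 3.11.15). The code was tested on simulated data.

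Hosts were named by rule: the 10 with the most nucleotides in antisense PPSs of both replicates, the 5 largest differences each way between day 0 and day 4 with 1 direction in all 4 pairs, the host of the top score of each day, and list genes with both-replicate support, Gm and Rik symbols left out. Members and lists were chosen with earlier results of these data known. Alternatives covered length, replicate support, gene set, gene ends, overlap, score, merging, strand, windows, the replicate block and each replicate left out. The result of 1 gene list is not reported here.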

Additional observations from a re-analysis of the deposited data

Results flagged for a closer look

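In the length class left out as ribosome-sized, 20 to 40 nt, day 0 had 253 antisense PPSs, day 2 had 835 and day 4 had 480, which is 1.06%, 1.67% and 1.58% of that class. No comparison above used them.

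The share of antisense PPSs that overlapped an opposite exon moved in opposite directions in the call sets of the nucleases, by 2.15 points from day 0 to day 4 after ssRNase and by -0.93 points after dsRNase. The difference between these changes was not tested.

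In the Gpm6b run both ssRNase call sets of day 4 held fewer antisense PPSs than either of day 0 (-28.5 on average), and both dsRNase call sets held more (24). In the Bzw2 run the changes were -5.5 and 25, and in the Phykpl and Col23a1 run they were 2 and -2. These are counts that were not scaled to the size of the call sets. As a whole, the dsRNase call sets held 27862 and 32624 PPSs at day 0 and 54935 and 40195 at day 4. The ssRNase call sets held 56044 and 50995 at day 0 and 47625 and 48112 at day 4. The differences in the runs were not tested, and 55 runs were looked at.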

How the results depend on the processing

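The lower antisense share after dsRNase kept its sign under every alternative run. With the replicate block its value was -0.60 (exact permutation, adjusted p = 0.0625) and that of the exon overlap -3.39 (adjusted p = 0.0625), both at the smallest p the block allows, and the block changed no other call. Leaving out a replicate gave -0.61 to -0.58 for the antisense share, -3.78 to -3.00 for exon overlap, 4.6 to 5.3 nt for length, 0.67 to 0.91 for G plus C and 7.52 to 8.09 for repeats, and none of these passed the threshold. Fewer arrangements remain. Before adjustment over 4 tests, the smallest possible exact permutation p was 0.0278 for the nuclease differences and 0.0625 for the antisense minus sense differences. Exon overlap had p = 0.0556 (exact permutation) without either day 0 replicate. With a replicate left out, the day 2 change of the antisense share was 0.15 to 0.34 and the day 4 change 0.19 to 0.36.

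The number of antisense PPSs was 2409 with calls of both replicates only, 3915 with own-strand genes extended by 5 kb, 3571 in the upper score class, 3659 with single calls, and 3035 and 3325 on the plus and minus strand. In the same order the antisense share was 2.07%, 1.10%, 1.91%, 1.64%, 1.64% and 1.95%. It was 1.71% with all lengths, 1.90% with protein-coding and long noncoding genes only, 1.21% without the 10 largest runs and 1.31% without PPSs of several places. These last 2 settings were chosen after seeing the data.

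The share with a PPS on the other strand was 11.99% with both replicates and 3.81% with single calls. In these settings the PPS on the other strand had to meet the same limit. The share was 12.1% with the smaller gene set, 16.9% with extended genes, and 9.90% and 17.8% on the plus and minus strand. It was 9.51% when 50% of the PPS had to be covered and 15.3% against PPSs of all lengths. Without the 10 largest runs it was 9.75%, and without PPSs of several places 9.02%.

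The day 2 change of the antisense share was 0.28 with all lengths, 0.27 with both replicates, 0.048 with extended genes, 0.13 and 0.30 on the plus and minus strand and 0.20 without PPSs of several places. The day 4 change was 0.13 with extended genes, 0.22 with single calls, 0.46 and 0.051 by strand and 0.22 without the 10 largest runs.

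Exon overlap by nuclease missed the threshold with both replicates (-3.31), extended genes (-3.45), top scores (-3.22), the plus strand (-1.34) and without the 10 largest runs (-1.70). The share near opposite starts turned to -0.85 with the smaller gene set (exact permutation, adjusted p = 0.037). The length difference was 5.17 with all lengths, 4.83 with the smaller gene set, 9.75 with extended genes, 0.33 with single calls, 2.42 on the plus strand, 4.17 without PPSs of several places and -2.17 without the 10 largest runs. The G plus C difference was 0.61, 0.26, 1.00, 0.76, 0.49 and 0.19 in the first 6 of these settings, and the repeat difference 8.12, 7.50, 10.7, 4.83, 1.07 and 1.86. The causes were not tested.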

Other observations

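A few runs opposite predicted genes were seen mostly at 1 day. These were chosen after their values were seen. The run opposite Gm49171 on chromosome 14 held 4 and 7 antisense PPSs in the replicates of day 0, 8 and 13 at day 2, and 64 and 67 at day 4. The run opposite Gm30504 held 1 and 1 at day 0, 0 and 3 at day 2, and 37 and 44 at day 4. The run opposite 1110051M20Rik began 761 nt after the end of Arfgap2 and held 0 and 0, then 4 and 9, then 19 and 17, beside 16, 23 and 21 own-strand PPSs of Arfgap2. The run opposite Gm36431 on chromosome 7 held 0 and 1 at day 0, 14 and 15 at day 2, and 0 and 0 at day 4. By chromosome, 14.4% of antisense PPSs were on X and 7.06% on Y, where 4.16% and 0.563% of all PPSs lay. A few runs made up most of these. On X, the Mid1 and Gpm6b runs held 399 and 383 of 915. On Y, the runs opposite Gm47283, Mid1-ps1 and Gm21742 held 264, 105 and 80 of 449. Several exact places were found for 335 PPSs of the Mid1 run, and for 201, 96 and 80 of the Y runs.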
